A study of Mus musculus with 4 samples.

Results

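The primitive streak and the mesoderm that leaves it are marked by a small set of transcription factors, and 8 of them were followed here in mouse gastruloids: *T*, *Eomes*, *Mixl1*, *Gsc*, *Sp5*, *Tbx6*, *Mesp1* and *Mesp2*. They were taken by symbol from the deposited feature lists, which hold 32286 features at days 4, 5 and 6 and 32287 at day 11, and all 8 were present in each list. Gastruloids are aggregates of embryonic stem cells that form cell types of the early embryo in culture. All libraries came from wild type Zx1 mouse embryonic stem cells. The cultures had received a pulse of CHIR99021, an activator of Wnt/β-catenin signalling, before the earliest collection. From day 4 bFGF, VEGF and ascorbic acid were added for a few days. Exposure to these factors thus differed between the libraries and cannot be told apart from the day of collection. Several gastruloids were pooled for each library, and there was 1 library per day at days 4, 5, 6 and 11, so the comparison is across time in culture and no p value or SE could be computed. Every interval below is at 95% and covers counting error only, not the spread among gastruloids or cultures.

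In the embryo, Wnt and Nodal signals induce *T* and *Eomes* in the posterior epiblast, and cells that ingress through the streak then switch on *Mesp1* as they become mesoderm. *T* (brachyury) stays on in the tail end of the embryo, where it keeps progenitors of the trunk going, and *Eomes* acts earlier, in the cells that give rise to anterior mesoderm and definitive endoderm. *Tbx6* directs cells to the presomitic mesoderm, from which somites are cut, and *Mesp2* sets the somite borders. *Mixl1* and *Gsc* are homeobox genes of the streak and its anterior end, *Sp5* is a direct target and feedback regulator of Wnt/β-catenin signalling, and *Mesp1* is an early marker of cardiac and craniofacial mesoderm.

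Because *T* and *Sp5* are textbook Wnt targets and were often found in the same cells (below), the 250 bases before their start sites are shown with their matches to the TCF/LEF motif in capitals. The letters searched for were CTTTG followed by 2 bases that are each A or T, on both strands, and the sequences are those of RefSeq on GRCm38.p6, 5′ to 3′ on the strand of the gene.
T, chr17:8434173-8434422, + strand: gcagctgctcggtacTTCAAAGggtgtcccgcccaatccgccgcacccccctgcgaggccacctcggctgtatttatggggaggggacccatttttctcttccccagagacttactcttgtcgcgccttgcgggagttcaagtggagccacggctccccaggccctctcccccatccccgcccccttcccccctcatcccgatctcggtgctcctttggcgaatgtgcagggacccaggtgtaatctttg
Sp5, chr2:70474673-70474922, + strand: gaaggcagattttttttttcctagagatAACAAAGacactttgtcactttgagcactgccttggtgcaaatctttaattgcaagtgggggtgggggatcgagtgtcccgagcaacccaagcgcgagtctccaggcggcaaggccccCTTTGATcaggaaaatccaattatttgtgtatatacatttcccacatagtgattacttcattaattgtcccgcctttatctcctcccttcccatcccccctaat
*T* had 1 match, 235 to 229 bases before its start, and *Sp5* had 2, at 222 to 216 and at 104 to 98 bases before. *Mesp1* had 2 as well, and the nearer, 31 to 25 bases before its RefSeq start, lies in this stretch, which is inside the GENCODE gene model of *Mesp1*, as are 198 of the 250 bases searched for that gene.
Mesp1, chr7:79793604-79793632, − strand: gctcgagccggCTTTGATatgctgatgaa
The motif was thus found in 3 of the 7 genes for which a RefSeq promoter was supplied, against 4872 of 32841 promoters (14.8%), and *Mixl1* was the gene without one. The T-box letters GGTGTGA were in 3.33% of all promoters and the FOXH1 letters AATNNACA in 10.9%, and neither was in any of the 7. A match is only a run of letters and was not tested as a binding site. *Mesp1* (chr7:79792241-79793788, − strand) and *Mesp2* (chr7:79810727-79813439, + strand) are neighbours with 16938 bases between them in GENCODE vM21, and they are read away from each other. The other genes lie on chromosomes 17 (*T*), 9 (*Eomes*), 1 (*Mixl1*), 12 (*Gsc*), 2 (*Sp5*) and 7 (*Tbx6*). An antisense gene model, *Gm33460*, overlaps *Eomes* on the opposite strand.

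The deposited counts are UMIs (unique molecular identifiers, each standing for 1 captured RNA molecule). Barcodes numbered 6628 to 9584 per library, and 5254 to 7854 cells were kept after quality limits and doublet removal. The median depth of kept cells was 24196, 28154, 24736.5 and 11423.5 UMIs at days 4, 5, 6 and 11, so genes with few UMIs were harder to find at day 11. Pairs of libraries shared 5 to 23 barcodes, at most 0.295% of the smaller. Levels are given as CPM, the UMIs of a gene for every 1000000 UMIs of those cells. A cell was taken as positive with at least 1 UMI, and shares of positive cells are also given after each cell was thinned at random to 5000 UMIs, with the 12 kept cells of day 6 and 319 of day 11 below that depth left out. Cells of each day were grouped by Leiden clustering in which neither the 8 genes nor the listed pathway genes took part, and a group was named "X-like" only from a fixed set of markers. The kit counts 3′ ends without regard to transcript length, so levels are compared within a gene and not between genes.

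All 8 genes were at least 2-fold lower at day 5 than at day 4. Over all 17987 genes with at least 20 UMIs in both libraries together, 7.72% were, and the median gene was 0.11 higher on the log2 scale. *Eomes*, which opens the way to anterior mesoderm and endoderm, stood at 55.5 CPM (54.5 to 56.6) at day 4 and at 3.89 (3.62 to 4.18) at day 5, 14.3-fold lower. *Mesp1*, the cardiac mesoderm gene, went from 164.7 CPM to 12.4, 13.2-fold lower (12.7 to 13.8). *Mixl1* went from 21.2 to 1.73 CPM, 12.2-fold lower. *Tbx6* was 10.5-fold lower (8.74 to 12.8), an interval that overlaps that of *Mixl1* (10.95 to 13.7), from 6.41 to 0.609 CPM. *Gsc* was 8.01-fold lower, from 11.6 to 1.45 CPM. *T* and *Sp5*, which the embryo keeps in its tail end, differed less: *T* was 4.56-fold lower (4.33 to 4.81), from 39.2 to 8.58 CPM, and *Sp5* 3.30-fold lower (3.13 to 3.49), from 29.4 to 8.89 CPM. *Mesp2* had the smallest difference, 2.19-fold (1.88 to 2.55), from 2.75 to 1.26 CPM, and its interval reached below 2.

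Between days 5 and 6 the genes parted. *Eomes* (0.353 CPM, 11.0-fold lower), *Mixl1* (0.326 CPM, 5.30-fold lower), *Mesp1* (0.699 CPM, 17.8-fold lower) and *Mesp2* (0.466 CPM, 2.70-fold lower) were again at least 2-fold lower, 4 of 8 genes against 15.1% of 18253 genes. *T* (6.07 CPM) and *Sp5* (7.01 CPM) stayed within 2-fold, at ratios of 0.707 (0.652 to 0.767) and 0.789 (0.730 to 0.852), although by the mean of each cell's CPM *T* was 2.08-fold lower. *Tbx6* and *Gsc* were higher, 2 of 8 genes against 18.3% of all genes tested, a share near the background. *Tbx6*, the presomitic T-box gene, was 4.92-fold higher (4.02 to 6.07), at 2.997 CPM. *Gsc* was 2.17-fold higher (1.87 to 2.52), at 3.16 CPM, but 1.92-fold by the mean of each cell's CPM and 1.97-fold with median-of-ratios scaling. The median gene was 0.14 higher on the log2 scale in this step.

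At day 11, 7 of the 8 genes were at least 2-fold lower than at day 6, against 8.57% of 17904 genes, with the median gene 0.10 higher on the log2 scale. *T* had 911 UMIs at day 6 and 0 UMIs in the 7854 kept cells of day 11. Against a floor of 3 UMIs over the library, a 1-sided limit, *T* was at least 230.4-fold lower, and a count of 0 allows at most 0.0382% of cells with a UMI. A single UMI of *T* was counted over all 9584 barcodes of that day. *Eomes* (10 UMIs, 4.02-fold lower, and 1.95-fold by the mean of each cell's CPM), *Mixl1* (6 UMIs, 6.20-fold), *Mesp1* (14 UMIs, 5.69-fold) and *Mesp2* (26 UMIs, 2.04-fold, 1.29 to 3.34, and 1.52-fold over every barcode) were left with a few scattered molecules. *Tbx6* was 9.48-fold lower (36 UMIs, 0.316 CPM) and *Sp5* 5.71-fold lower (140 UMIs, 1.23 CPM). *Gsc* alone was higher, 5.37-fold (4.86 to 5.95), 1 of 8 genes against 19.7% of all. Its 16.96 CPM (16.2 to 17.7) at day 11 lay above its 11.6 CPM (11.2 to 12.1) at day 4, whereas *Mesp1* was 1340-fold, *Eomes* 632-fold and *Mixl1* 402-fold lower at day 11 than at day 4. With 1 library per day, the library and the day cannot be told apart.

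**Figure D1:**
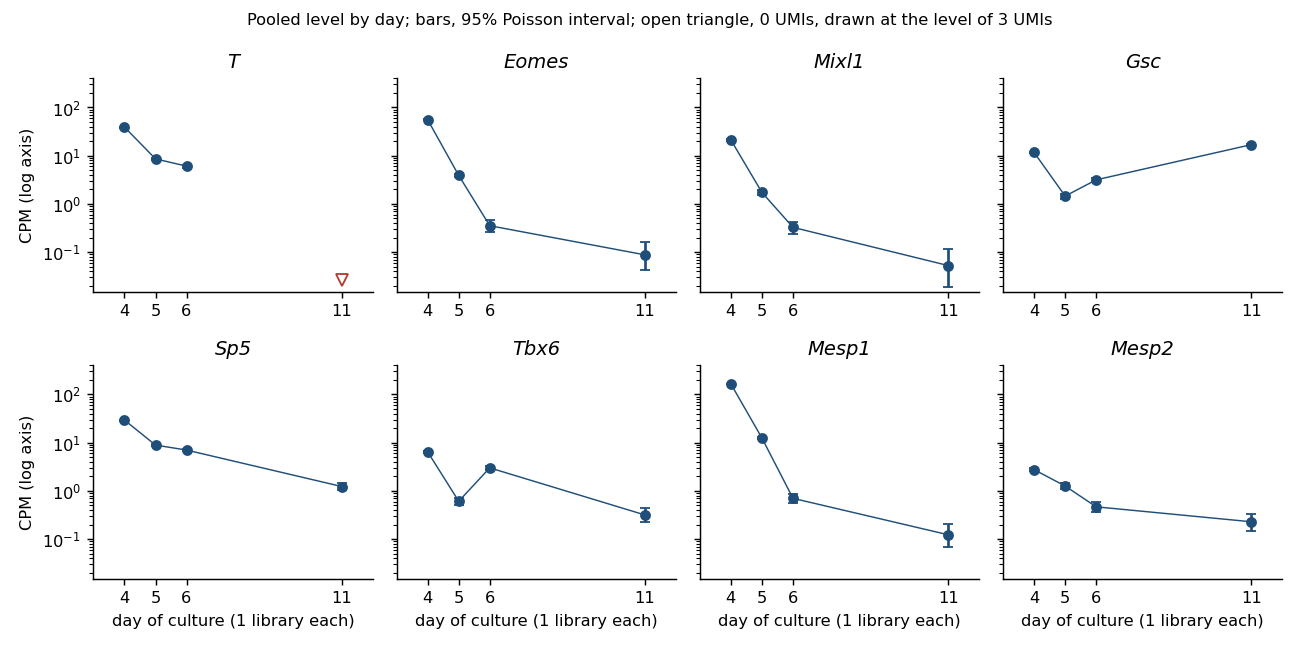
Level of each gene in CPM of summed UMIs (log axis) against day of culture, 1 library per day, with bars for the 95% Poisson interval and an open triangle at the level of 3 UMIs where *T* had 0. *Eomes*, *Mixl1*, *Mesp1* and *Mesp2* were lower at each later day, *Tbx6* had a higher value at day 6 than at day 5, and *Gsc* was highest at day 11 at 16.96 CPM.

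The shares of positive cells followed the same order of days for most genes. *Mesp1* was found in 63.0% of day 4 cells (37.7% after thinning), in 17.1% a day later (5.03%), and in 1.01% (0.267%) and 0.166% (0.0664%) of those of days 6 and 11. For *Eomes* the shares in order of day were 30.6%, 6.35%, 0.285% and 0.127%, and thinned 15.1%, 1.61%, 0.134% and 0.0796%. For *T* they were 24.3%, 10.9% and 4.47% up to day 6, thinned 11.4%, 3.48% and 1.70%, and no cell of day 11 held it. These day 4 shares differ in how concentrated the molecules were. The 10% of cells with most *T* held 83.2% of its day 4 UMIs and the highest count in a cell was 60, whereas the same 10% for *Mesp1* held 49.9% of UMIs with a highest count of 76. At day 6 the positive cells of *T* held a median of 2 UMIs and up to 29. Those of *Sp5*, in 5.56% of cells (2.21% thinned), held a median of 2 and up to 20. A single UMI was held by 39.6% of the *T*-positive and 37.7% of the *Sp5*-positive cells. The 1% of day 6 cells with most of the gene held 63.0% of *T* UMIs and 50.3% of *Sp5* UMIs.

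*Mixl1* was in 20.5% (7.28% thinned), 4.01%, 0.400% and 0.0637% of cells on the 4 days, and *Sp5* in 32.6% (12.1% thinned), 11.9%, 5.56% and 1.21%. *Tbx6* was in 11.5%, 1.53%, 3.39% and 0.446%, and thinned in 3.51%, 0.263%, 0.954% and 0.106%. *Mesp2*, the somite border gene, was sparse on every day, in 5.37%, 3.67%, 0.704% and 0.331% of cells, and 70.2% of its positive cells at day 4 and 95.4% at day 5 held 1 UMI only. *Gsc* was in 17.7%, 3.50%, 4.82% and 9.79%, and thinned in 5.42%, 0.852%, 1.32% and 6.37%. The unthinned share of *Gsc* was therefore lower at day 11 than at day 4 while its level and its thinned share were not, the cells of day 11 being the shallower. At least 1 of the 8 genes was found in 85.3%, 41.0%, 14.5% and 11.9% of cells in order of day, and at least 4 of them in 18.03%, 0.774%, 0.476% and 0%.

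Genes of the pathways around the 8 were counted from lists that hold none of them. Of 9 Nodal pathway genes 7 were at least 2-fold lower at day 5 than at day 4, against 7.72% of all genes, among them *Tdgf1*, the Nodal co-receptor (58.6 and 14.1 CPM), and *Foxh1*, a Nodal effector (3.56 and 0.639 CPM), while *Nodal* itself stood at 8.93 and 10.6 CPM. Of 10 presomitic and segmentation genes 7 were lower at day 5, and 7 of the 9 measured were at least 2-fold higher at day 6 than at day 5, against 18.3% of all genes, with a median ratio of 4.24 in that step. They included *Hes7*, the segmentation clock gene (8.37, 2.54 and 14.8 CPM at days 4, 5 and 6), and *Dll1*, a Notch ligand (5.74, 1.67 and 7.09 CPM), which like *Tbx6* were lowest at day 5 of these days, but they were highest at day 6 and *Tbx6* at day 4. *Msgn1*, another presomitic regulator, had 118, 0, 10 and 0 UMIs at days 4, 5, 6 and 11. Of 9 axial progenitor genes 5 were at least 2-fold higher and 2 lower at day 6, and 6 were lower at day 11, against 8.57% of all genes, among them *Cdx2* (30.9 and 0.132 CPM) and *Nkx1-2* (1.22 and 0.00878 CPM, 183 and 1 UMIs), the interval in which *T* went to 0 UMIs.

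Co-detection was measured for the 28 pairs of the 8 genes. Deep cells hold more of every gene, so the number of cells with both genes was divided by a depth-matched product, the sum over 10 classes of total UMIs of the cells expected if the shares of the 2 genes were independent within a class. Pairs are counted below only where the product reached 3 cells. The ratio can be no higher than about the inverse of the share of the commoner gene. Rarer genes therefore allow higher ratios, and ratios of different days are not on 1 scale. At day 4, 6 of 28 pairs reached at least 1.5 times the product, and the median over the 28 was 1.24. Of all pairs of a member with any other gene, 3.5% did. These other genes were not matched to the 8 in share of cells, and a gene found in nearly all cells cannot reach 1.5. The share was 0.308% for pairs of *Mesp1*, the commonest of the 8 at day 4, and 8.69% for those of *T*. Such background shares are therefore partly low by construction, here and on later days, and do not measure how unusual the counted pairs are.

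Of these 6 pairs 3 joined *Eomes*, *Mixl1* and *Gsc*. *Mixl1* and *Gsc* were together in 588 cells, 2.23 times the product (2.05 to 2.41), *Eomes* and *Mixl1* in 923 cells, 2.08 times (1.95 to 2.22), and *Eomes* and *Gsc* in 756 cells, 1.95 times (1.81 to 2.09). After thinning to 5000 UMIs these ratios were 3.75, 3.43 and 3.07. Of the *Mixl1*-positive cells 68.6% held *Eomes*, against 20.7% of the *Mixl1*-negative. The other 3 lay among *T*, *Sp5*, *Tbx6* and *Mesp2*. *T* and *Tbx6* were together in 352 cells, 1.92 times the product (1.72 to 2.13), *T* and *Sp5* in 830 cells, 1.56 times (1.45 to 1.67), and *Tbx6* and *Mesp2* in 67 cells, 1.64 times (1.27 to 2.08). Thinned, the ratio of *T* and *Sp5* was 2.30 and that of *T* and *Tbx6* 2.14, whereas *Tbx6* and *Mesp2* had only 3 cells together, a ratio of 0.919 (0.190 to 2.69). *Sp5* was found with the first 3 genes as well, at 1.479 (1.37 to 1.59) with *Mixl1*, 1.41 with *Eomes* and 1.32 with *Gsc*, and thinned these ratios were 1.90, 1.76 and 1.65, past the limit of 1.5.

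Several pairs of *T* or *Tbx6* with the other genes lay below 1. *T* and *Eomes* were together in 422 cells where the product was 502, a ratio of 0.841 (0.762 to 0.925), and 0.549 after thinning. *Eomes* and *Tbx6* had a ratio of 0.718 (0.612 to 0.836), *T* and *Gsc* 0.817 (0.717 to 0.927), and *T* and *Mesp1* 0.868 (0.811 to 0.927), with thinned values of 0.488, 0.520 and 0.711. *Mixl1* was on the other side of 1 with both, at 1.16 (1.05 to 1.28) with *T* and 1.29 (1.11 to 1.478) with *Tbx6*. Thinned, these were 1.07 (0.812 to 1.38) and 1.37 (0.871 to 2.06), and both intervals include 1. At the limit of 1 UMI, 26.5% of *T*-positive cells also held *Eomes*, against 31.9% of the *T*-negative, and 129 cells held 6 or more of the 8 genes. After thinning these were 8.32%, 16.0% and 1 cell. The part of free RNA from other cells and of remaining doublets in such overlap was not tested. *Mesp1* was in 63.0% of day 4 cells (37.7% thinned), so its unthinned ratios had little room above 1. Of the *Eomes*-positive cells 74.6% held *Mesp1*, against 57.9% of the *Eomes*-negative. For *Sp5* these shares were 62.7% and 63.2%. *Mesp1* was found with most genes at close to the product (0.976 with *Sp5*, 1.09 with *Tbx6*, 1.16 with *Eomes*). After thinning its ratios were 1.004, 1.19 and 1.58 with these genes, 1.4997 with *Mixl1* and 1.485 with *Gsc*. Its ratio with *Mesp2* was 1.481 (1.33 to 1.65), 1.91 thinned, and 93.5% of *Mesp2*-positive cells held *Mesp1*, against 61.3% of the *Mesp2*-negative. The 2 genes are paralogs, and whether reads of one were counted for the other was not tested.

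At day 5, 14 of the 28 pairs reached 1.5 times the product. Among pairs with any other gene, likewise not matched in share of cells, 6.69% did. *T* and *Sp5* led with 255 cells, 2.97 times the product (2.62 to 3.36). *Mixl1* and *Gsc* (2.81, 28 cells), *Eomes* and *Gsc* (2.79, 44 cells), *T* and *Tbx6* (2.58, 28 cells) and *Eomes* and *Mixl1* (2.21, 41 cells) had ratios above 2. *T* and *Eomes*, below 1 at day 4, were at 1.33 (1.02 to 1.71) with 62 cells. Other ratios of *T* or *Eomes* stood higher at day 5 than at day 4 as well. *T* and *Mixl1* were at 2.57 (77 cells) against 1.16 and *Eomes* and *Sp5* at 2.27 (117 cells) against 1.41. These genes were in fewer cells at day 5, which allows higher ratios, and the shares of cells went the other way. Of *T*-positive cells 11.0% held *Mixl1*, against 24.7% at day 4, and 36.3% held *Sp5*, against 52.1%. Of *Eomes*-positive cells 28.5% held *Sp5*, against 48.7%. *Mesp1* and *Mesp2* were at 1.88 (1.485 to 2.34), with 33.3% of *Mesp2*-positive cells holding *Mesp1*. The lowest ratio, 0.282 for *Tbx6* and *Gsc*, rests on 1 cell.

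At day 6 only 10 pairs reached a product of 3, and 7 of these were at least 1.5 times it. Among pairs with any other gene, again not matched in share of cells, 4.28% were. *T*, *Sp5* and *Tbx6* shared cells. *T* and *Tbx6* were together in 80 cells, 5.97 times the product (4.73 to 7.43), *T* and *Sp5* in 153 cells, 5.66 times (4.80 to 6.63), and *Tbx6* and *Sp5* in 81 cells, 5.01 times (3.98 to 6.23). Of the *T*-positive cells 65.1% held *Sp5*, against 2.77% of the *T*-negative. *Mesp1* and *Mesp2*, by then rare, were found with *T* at 3.59 (15 cells) and 2.91 times (9 cells), and with *Sp5* at 3.16 (16 cells) and 2.49 times (9 cells). *Gsc* was apart from them, with *T* in 5 cells where the product was 13.9, a ratio of 0.359 (0.116 to 0.837), and with *Sp5* in 10 cells at 0.589 (0.282 to 1.08). *T* and *Eomes* were together in 0 cells at a product of 1.43, too few to compare.

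**Figure D2:**
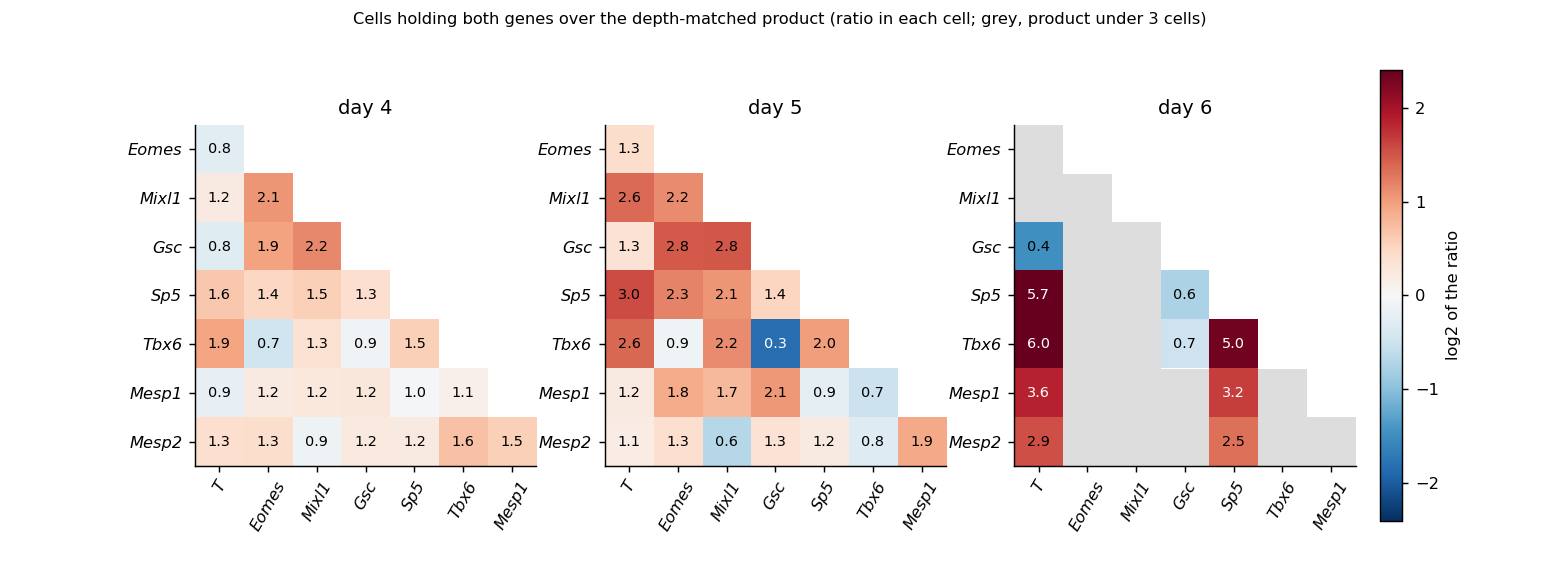
Number of cells holding both genes over the depth-matched product for each pair at days 4, 5 and 6, printed in each square and coloured by its log2, with grey where the product was under 3 cells. *Eomes*, *Mixl1* and *Gsc* form a block of 1.95 to 2.23 at day 4, and *T*, *Sp5* and *Tbx6* a block of 5.01 to 5.97 at day 6.

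The day 4 cells were also divided by how many *Eomes* molecules they held: 0 (4552 cells), 1 (577), 2 to 4 (661), 5 to 9 (433) and 10 or more (332). Median depth was 23184 UMIs in the lowest class and 38454 in the highest, and the levels below are scaled to depth. *Mixl1* stood at 5.597, 13.9, 32.8, 62.4 and 110.2 CPM across these classes, and *Gsc* at 3.99, 8.02, 17.7, 35.2 and 51.7 CPM. *Mesp1* was higher in each class than in the one before, from 118.4 to 334.2 CPM, and *Sp5* from 22.8 to 64.6 CPM. *T* had the opposite order, 47.3, 38.3, 27.5, 16.4 and 8.31 CPM, and *Tbx6* went from 8.16 to 2.56 CPM. By classes of *T* the picture was the converse for *Mesp1*: cells with 10 or more *T* UMIs (238 cells) had 61.7 CPM of *Mesp1* and 16.3 of *Eomes*, against 170.9 and 59.7 in the 4962 cells with none, while *Sp5* stood at 101.4 against 19.8 CPM.

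**Figure D3:**
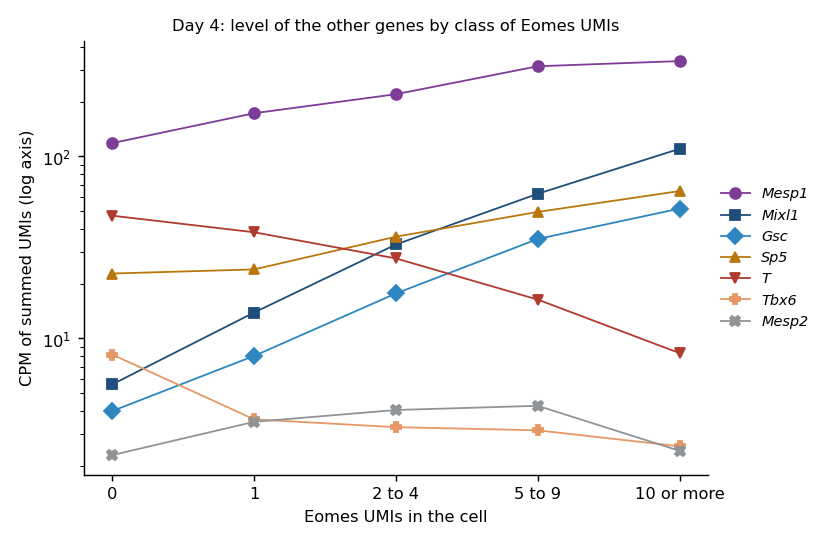
Level of the other 7 genes at day 4 in CPM of summed UMIs (log axis) by the number of *Eomes* UMIs in the cell, with no error bars drawn. *Mixl1* and *Gsc* were higher with each class and *T* was lower with each, from 47.3 to 8.31 CPM.

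The groups of cells showed where these genes were found. At day 4, group 1 (1050 cells, 16.0% of the day), led by *Eomes*, *Myl7* and *Kdr* and left unnamed, held 59.9% of all *Eomes* UMIs, 61.2% of those of *Mixl1* and 48.8% of those of *Gsc*. Its levels were 218.9 CPM of *Eomes* (213.6 to 224.4), 85.3 of *Mixl1* and 37.5 of *Gsc*, with 336.6 of *Mesp1*, and *T* was at 5.15 CPM there. The streak-like group 9 (407 cells, 7 of 10 streak markers raised, led by *T*, *Lefty1* and *Fst*) held 47.6% of *T* UMIs at 390.3 CPM (377.7 to 403.3) and *Sp5* at 97.2 CPM, with *Eomes* at 6.29 CPM. *T* was therefore highest in the cells with streak markers, and *Eomes*, *Mixl1* and *Gsc* in a group in which no class had enough of its markers for a name.

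Further *T*-rich groups of day 4 were the epiblast-like group 11 (204 cells, 177.2 CPM) and the streak-like group 12 (122 cells, 95.4 CPM). Group 12 had 6 of 10 streak markers raised and was led by *Hoxaas3*, *Hoxb5os* and *Hoxc8*. It had 77.0 CPM of *Sp5* but 5.13 of *Mesp1* and 3 UMIs of *Eomes*. The presomitic mesoderm-like group 6 (565 cells, led by *Rspo3*, *Cited1* and *Hoxaas3*) held 53.4% of *Tbx6* UMIs at 50.8 CPM (47.0 to 54.8; 27.7 CPM in the highest group at resolution 0.5), with *T* at 67.1 and *Mesp1* at 255.1 CPM. *Mesp1* and *Mesp2* were both highest in group 7 (521 cells, led by *Ptgds*, *Anxa2* and *Aldh1a2*, unnamed), at 458.1 (444.9 to 471.7) and 14.5 CPM (12.2 to 17.1). In the endoderm-like group 8 (451 cells, 10 of 13 markers raised) *Eomes* stood at 68.7 and *Sp5* at 59.97 CPM, whereas *Mesp1* was at 16.4 and *Tbx6* at 0.818 CPM. *Eomes* was found in 1.88% of the 746 mesenchyme-like cells of group 4 (0.402% thinned, median depth 21408), against 79.8% of group 1 (51.5% thinned, median depth 23819.5). Group 4, with 3 of 9 mesenchyme markers raised, is the nearest thing at this day to a type without the gene. No group lacked *Mesp1* UMIs, and the lowest share of cells with one was 9.02%, in streak-like group 12. The part of free RNA in these low shares was not tested.

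At day 5, *T* was highest in the unnamed groups 8 (led by *Dppa5a*, *Utf1* and *Mylpf*, 33.3 CPM), 3 (*Hoxaas3*, *Rspo3* and *Ccnd2*, 32.6 CPM) and 12 (*Hoxaas3*, *Hoxc8* and *Ube2c*, 29.1 CPM), whose intervals overlap. This order rests on the resolution of the clustering. The highest level of *T* was 85.9 CPM, in a group of 218 cells, at resolution 1.5 and 94.2 CPM, in 212 cells, with the 8 genes and the lists kept in the clustering. *Mesp1* (55.5 CPM, 51.1 to 60.2) and *Mesp2* (6.00 CPM, 4.62 to 7.66) were both highest in the cardiomyocyte-like group 7 (449 cells, led by *Actc1*, *Krt15* and *Rgcc*). That name rests on 3 of 10 cardiomyocyte markers raised, the fewest that give a name. At resolution 1.5 the highest level of *Mesp1* was 128.4 CPM, in 129 cells, and that of *Eomes* 15.6 CPM in the same group. *Sp5* was highest in the endoderm-like groups 6 (42.8 CPM) and 13 (36.8 CPM), where *Eomes* also had its highest levels (9.63 and 9.92 CPM, whose intervals overlap). In the endothelium-like group 9 (375 cells, median depth 31439) *T* was found in 10.4% of cells and *Mesp1* in 9.60%, against 30.4% for *T* in group 3 (median depth 25156.5) and 41.0% for *Mesp1* in group 7 (median depth 21927). The share of *T* over all cells at day 5, 10.9%, was close to that of the endothelium-like cells, and the part of free RNA in it was not tested.

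At day 6, 6 of the 8 genes had their highest level in the same 102 cells, the presomitic mesoderm-like group 14 (1.94% of the day, led by *Hes7*, *Rspo3* and *Dll3*). It held *T* at 104.6 CPM (94.7 to 115.3), *Sp5* at 90.2 and *Tbx6* at 82.5 (73.7 to 92.0), with 44.7%, 33.3% and 71.3% of their UMIs. Also highest there were *Mesp1* at 17.2 CPM (63.8% of its 105 UMIs), *Mesp2* at 11.8 (65.7% of 70) and *Mixl1* at 7.45 (59.2% of 49). In the group these 3 genes were found in 19, 13 and 12 cells. Single cells weighed heavily, the highest count in a cell of the day being 27, 17 and 15 UMIs. Beside this group, the neural ectoderm-like group 4 (453 cells, led by *Sox2*, *Fabp7* and *Hes5*) held 42.0% of *T* UMIs at 22.5 CPM and 43.1% of *Sp5* UMIs at 26.6 CPM, with *Tbx6* at 2.35 CPM. In that group *T* was found in 20.1% of cells (8.41% thinned), and *Cdx2*, of the axial progenitor list, was among the 10 leading genes. *Eomes* had 0 UMIs in groups 14 and 4, and the endoderm-like group 15 (97 cells) held 84.9% of its 53 UMIs at 10.4 CPM. These UMIs lay in 8 of the 97 cells, and over the whole day 2 cells held 10 or more *Eomes* UMIs. In the cardiomyocyte-like group 11 (316 cells, median depth 23295) *T* and *Eomes* had 0 UMIs, which allows up to 3, and in the endothelium-like group 7 (365 cells, median depth 33075) *T* was in 0.822% of cells, against 74.5% in group 14 (median depth 35605.5).

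**Figure D4:**
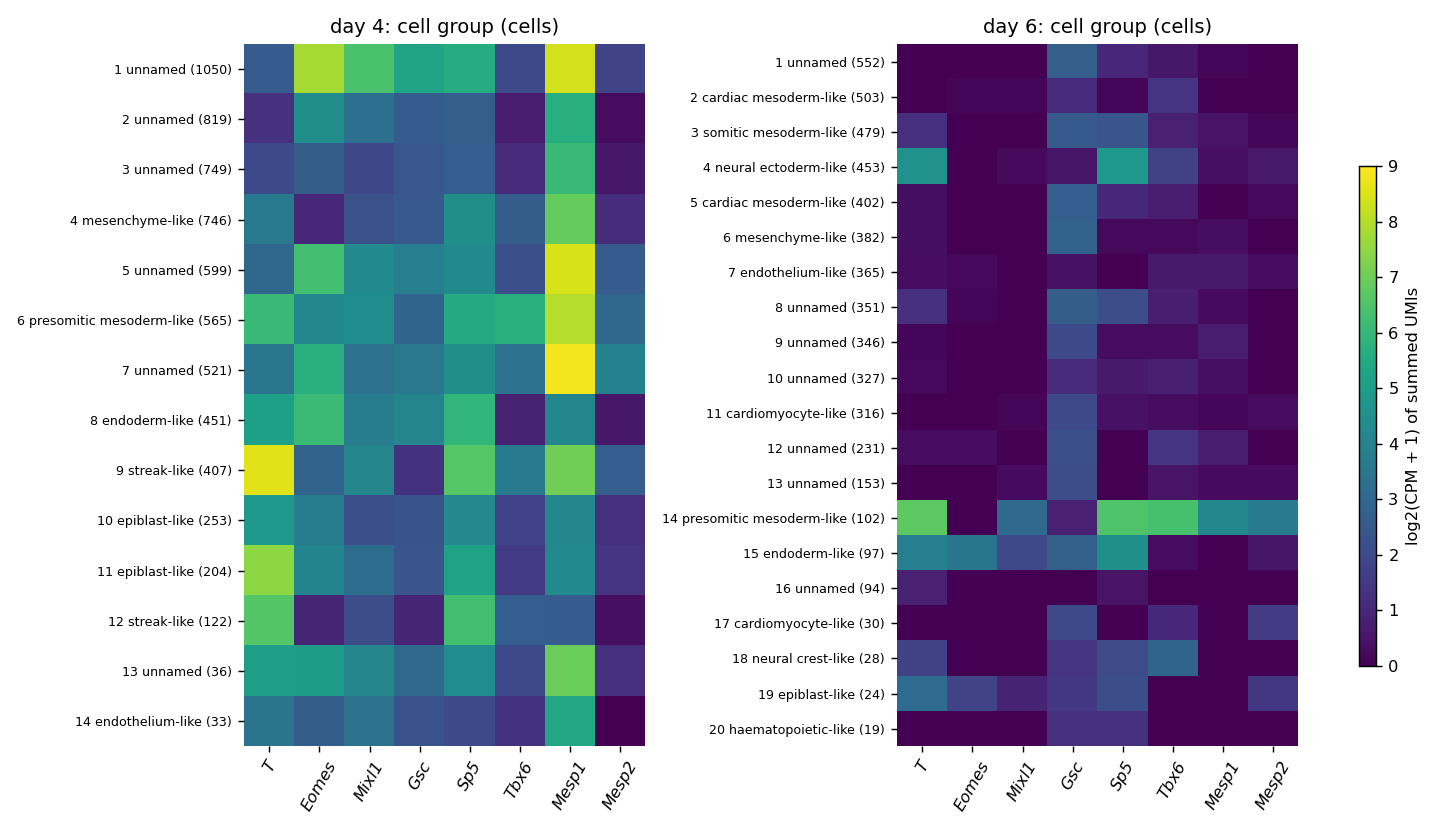
Level of each gene as log2(CPM + 1) of summed UMIs in every cell group of day 4 and day 6, with the number of cells in brackets. At day 4 *Eomes*, *Mixl1* and *Gsc* were highest in group 1 and *T* in group 9, and at day 6 the 102 cells of group 14 held the highest levels of 6 genes.

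No group of day 11 was named streak-like or presomitic mesoderm-like, and *Gsc* was highest in a mesenchyme-like one. The mesenchyme-like group 1 (979 cells, 8 of 9 markers raised, led by *Scx*, *Fibin* and *Slc1a3*) held 45.3% of its UMIs at 85.5 CPM (80.0 to 91.4), with *Gsc* in 30.7% of cells (23.1% thinned, median depth 9559). The next groups were the unnamed group 16 (33.1 CPM) and the mesenchyme-like groups 17 (32.2), 9 (30.02) and 2 (25.6), whose intervals overlap between neighbours. Groups 17, 9 and 2 had 3, 4 and 5 of 9 markers raised. The 4 mesenchyme-like groups together held 67.3% of *Gsc* UMIs in 2309 cells. In the endothelium-like cells the level was 1.36 CPM and the share 1.54% (0.494% thinned, median depth 16348), and in the 1015 neural ectoderm-like cells 0.559 CPM and 0.591%. *Gsc*-positive cells carried *Scx*, a tendon and connective tissue factor, at 82.0 CPM against 16.3 in the negative (a ratio of 5.04), *Dlx5*, a homeobox gene of pharyngeal arch and skeletal mesenchyme, at 18.4 against 3.26, *Col9a1*, a cartilage collagen, at 34.9 against 7.25, and *Cyp26b1*, a retinoic acid hydroxylase, at 31.7 against 8.54. At day 4, by contrast, they had carried *Otx2*, an anterior gene, at 23.7 against 7.13 CPM, *Cyp26a1* at 90.8 against 30.6 and *Tdgf1* at 117.0 against 42.8. At day 6 *Gsc* was highest in the mesenchyme-like group 6 (3 of 9 markers raised), at 6.03 CPM (4.41 to 8.04). This interval overlaps those of the endoderm-like group 15 (5.76, from 4 of 97 cells) and the unnamed group 1 (5.56).

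**Figure D5:**
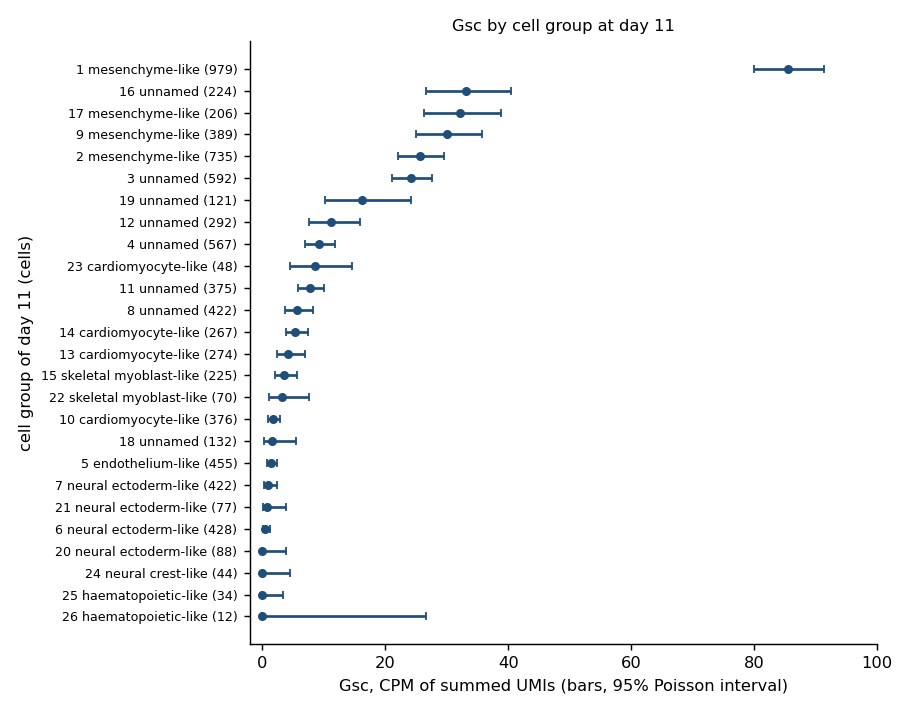
Level of *Gsc* at day 11 in CPM of summed UMIs for each of the 26 cell groups, with bars for the 95% Poisson interval and the number of cells in brackets. The mesenchyme-like group 1 stood at 85.5 CPM, above the interval of every other group, and the neural ectoderm-like groups were near 0.

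*Sp5* had the next most UMIs at day 11, 140. The neural ectoderm-like group 6 held 39.3% of them at 7.28 CPM (5.49 to 9.48) and the skeletal myoblast-like group 15 another 28 UMIs at 5.82 CPM (3.87 to 8.41), while the neural crest-like group 24 had 6 UMIs at 7.31 CPM. *Sp5*-positive cells of that day carried *Rfx4* (124.2 against 18.6 CPM), *Zic5* (73.2 against 10.8) and *Hes5* (223.5 against 42.2), genes of neural progenitors, and also *Msc* (61.8 against 9.14), a gene of head muscle progenitors, and *Lef1*, a Wnt effector (51.6 against 8.44). The 95 positive cells were deeper, with a median of 16140 UMIs against 11374.

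The listed genes were compared between the positive and the negative cells of day 4. In *T*-positive cells (1593 cells, median depth 25641 against 23915) 6 of 9 axial progenitor genes were at least 2-fold higher than in *T*-negative cells, 7 of 10 presomitic genes and 6 of 11 Fgf pathway genes, against 6.22% of 15912 genes. The median ratio was 3.68 for the axial progenitor list and 1.002 over all genes. *Lefty1*, a Nodal inhibitor, stood at 32.3 against 1.21 CPM (a ratio of 26.8), *Wnt3a*, a Wnt ligand of the tail bud, at 7.34 against 0.175 (41.8) and *Fgf8* at 229.3 against 39.1 (5.87). *Hes7* was at 24.8 against 2.54 CPM and *Nkx1-2*, a gene of axial progenitors, at 14.4 against 2.06. Of 8 early cardiac mesoderm genes 5 were at least 2-fold lower, against 2.38% of all genes, with *Hand2* at 25.8 against 72.1 CPM and *Hand1* at 126.8 against 291.6. Notochord genes went with *T* as well, 4 of 5 being at least 2-fold higher. Among them were *Shh*, the notochord signal, at 1.01 against 0.0281 CPM, and *Foxa2* at 18.5 against 6.76. *Shh* had only 55 UMIs at day 4, and *Noto*, the gene of the list left uncounted, had 9. No cell group of day 4 was named notochord-like.

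In *Eomes*-positive cells (2003 cells, median depth 27481 against 23184) the axial progenitor list had the opposite direction, with 6 of 9 genes at least 2-fold lower, against 3.97% of all genes, and a median ratio of 0.222. *Hoxb9*, a posterior Hox gene, stood at 1.24 against 16.7 CPM (0.0743) and *Cdx2* at 15.7 against 70.8 (0.222), whereas *Cyp26a1*, of the same list, was higher at 87.3 against 19.7. Of 7 endoderm genes 4 were at least 2-fold higher, against 2.77% of all genes, with *Sox17* at 33.9 against 8.53 CPM and *Foxa1* at 5.66 against 1.13. *Otx2* was at 22.8 against 4.10 CPM and *Kdr*, the VEGF receptor of early mesoderm and endothelium, at 91.0 against 32.9. The Wnt ligands divided, *Wnt3*, the ligand of the early streak, being 3.32-fold higher (30.5 against 9.17 CPM) and *Wnt3a* at 0.354 against 2.97 CPM.

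*Tbx6*-positive cells (753 cells, median depth 23925 against 24235) had 9 of 10 presomitic genes at least 2-fold higher, against 2.46% of all genes, with a median ratio of 4.42 against 0.986 over all genes. *Msgn1* stood at 3.34 against 0.252 CPM (13.3), *Dll1* at 27.3 against 2.91 (9.39) and *Hes7* at 34.9 against 4.87 (7.17). The exception was *Tcf15*, an early somite gene, at 9.53 against 8.43 CPM. *Mesp1*-positive cells (4131 cells, median depth 25283 against 22880) differed most by lower levels. Of 7 endoderm genes 6 and of 7 epiblast genes 5 were at least 2-fold lower, against 10.4% of all genes, with *Spink1* at 13.2 against 147.8 CPM, *Utf1* at 5.15 against 50.1 and *Nanog* at 3.73 against 22.0. *Cdh1*, the epithelial cadherin, was at 4.82 against 31.8 CPM and *Snai1*, which represses it, at 42.8 against 19.4. Of 8 early cardiac mesoderm genes 2, *Kdr* (69.1 against 22.5 CPM) and *Isl1* (25.6 against 11.5), were at least 2-fold higher, against 1.41% of all genes, and the median of the list was 1.57. *Mixl1*-positive cells (1345 cells, median depth 28157 against 23534) carried *Tdgf1* at 116.2 against 40.2 CPM, *Kdr* at 95.5 against 39.8 and *Wnt3* at 31.2 against 11.997. *Mesp2*-positive cells carried *Ptgds* at 127.6 against 22.3 CPM and *Dll3*, a segmentation gene, at 54.8 against 21.2. *Sp5*-positive cells carried both posterior and endoderm genes, *Hoxaas3* at 91.1 against 22.0 CPM, *Cdx1* at 28.5 against 7.40 and *Trh* at 119.8 against 31.1.

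At day 6 the *T*-positive cells (235 cells, median depth 40041 against 24195) had all 9 axial progenitor genes at least 2-fold higher, against 5.94% of 16247 genes, and a median ratio of 10.6 against 0.940 over all genes. *Cdx4* stood at 54.7 against 2.36 CPM, *Cdx2* at 205.8 against 17.8 and *Fgf17* at 112.9 against 2.22, and of the Fgf pathway 9 of 11 genes were higher. All 8 early cardiac mesoderm genes were at least 2-fold lower, against 17.6% of all genes, with *Hand2* at 7.64 against 150.5 CPM and *Gata4* at 1.91 against 35.8. *Tbx6*-positive cells (178 cells, median depth 34828 against 24412) had 8 of 9 measured presomitic genes higher, against 3.78% of all genes, with *Hes7* at 212.1 against 5.80 CPM and *Dll3* at 94.6 against 4.08. The positive cells of day 6 were deeper than the negative for both genes, and the part of depth in these ratios, which are scaled to it, was not tested.

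The genes whose levels ran most like those of each member were ranked by Pearson's r of log2(CPM + 1) over the 75 cell groups of the 4 days. Groups of a day share a library and its depth, so r is a description. *T* was most like *Fgf8* (r = 0.89), *Evx1os* (0.87) and *Epha1* (0.87). *Eomes*, *Mixl1* and *Mesp1* each had *Vrtn* as the most alike gene (0.92, 0.91 and 0.91), followed by *Zscan10* and *Cfc1* for *Eomes*, *Evx1* and *Evx1os* for *Mixl1*, and *Evx1* and *Ms4a4d* for *Mesp1*. *Tbx6* was most like *Hes7* (0.73), *Chst7* and *Foxb1*, *Sp5* like *Defa30* (0.86), *Evx1os* and *Evx1*, *Mesp2* like *Hmcn2* (0.67), *Defa30* and *Chst7*, and *Gsc* like *Sulf1* (0.67), *Col16a1* and *Pkdcc*. Within the 14 groups of day 4 some of these were not alike, as *Gsc* with *Sulf1* (0.04) and *Col16a1* (−0.41), *Mesp1* with *Evx1* (0.21) and *Eomes* with *Zscan10* (0.24). Among the 8 themselves *Mixl1* and *Mesp1* (0.89), *T* and *Sp5* (0.87) and *Eomes* and *Mixl1* (0.86) were most alike. *Gsc* stood apart from the others over all groups, with r between −0.14 (*T*) and 0.26 (*Eomes*), but within the 14 groups of day 4 its r with *Eomes* was 0.89 and with *T* −0.49.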

How the data were processed

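Raw UMI counts by gene and barcode, 1 sparse table a day, are what the authors deposited, made with Cell Ranger 3.1.0 at days 4 to 6 and, per the file headers, with Cell Ranger 6.0.1 at day 11, from Chromium 3′ libraries of the Zx1 line. The submitters' processing notes name the build mm10, and the annotation used for counting is not given in the sources used here. The deposited counts were turned here into CPM, percent and ratio values. The members and the gene lists were chosen with earlier results of these data known.

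Cells were kept with over 200 genes, under 20% mitochondrial and over 5% ribosomal protein UMIs, and log UMIs no more than 3 scaled median absolute deviations away from the median, and the 8% with the highest simulated-doublet scores were removed. Clustering used log-normalized counts (to 10000), 2000 variable genes without the 8 members and the listed genes, 30 components, 20 neighbours and Leiden at resolution 1. A group was named where at least 3 markers of a class were at least 2-fold up on the rest of the day (CPM plus 10) and in at least 10% of its cells, with no tie and no rival class among its 10 leading genes. This naming rule, like the minimum product of 3 cells for a counted pair, was taken up from the earlier processing or after the data were seen and was not in the test design.

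Named genes were the 8, the genes of the lists described, the 3 leading genes of a group described, the 3 genes of highest r with a member (at least 500 UMIs and 10 CPM in 1 group) and the 5 genes of highest ratio (CPM plus 5) in positive against negative cells of a day with at least 50 positive cells. *Cdh1*, *Snai1*, *Kdr*, *Nanog* and other listed genes were picked as examples after their values were seen. Clopper-Pearson intervals were used for shares, exact Poisson for UMIs and exact conditional binomial for ratios. UMIs correct for amplification, so intervals and floors (3 counts) cover counting error only. With 1 library per day nothing was tested. The steps were checked on simulated counts.

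Alternatives were every deposited barcode, doublets left in, the mean of each cell's CPM, median-of-ratios scaling, totals without mitochondrial and ribosomal genes, a 3-fold limit, no minimum beyond 1 UMI, at least 2 UMIs for a positive cell, 1 product over all cells, thinning to other depths, other Leiden resolutions (0.5 and 1.5) and clustering with the members kept. RefSeq promoters matched 7 members. GENCODE vM21 gave positions. Python 3.11.15, numpy 2.4.6, scipy 1.17.1, pandas 2.3.3, scikit-learn 1.9.0, leidenalg 0.10.2 and matplotlib 3.10.9 were used.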

Additional observations from a re-analysis of the deposited data

How the results depend on the processing

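The 8 genes lower at day 5 than at day 4 remained 8 in number under 6 of the 7 alternatives and were 7 with a 3-fold limit. The count lower at day 6 than at day 5 ranged from 3 to 5 about the reported 4, and the count lower at day 11 than at day 6 from 6 to 7. The number at least 2-fold higher at day 6 than at day 5, reported as 2, was 1 with the mean of each cell's CPM, 1 with median-of-ratios scaling and 1 with a 3-fold limit. The gene lost was *Gsc*. Pairs at least 1.5 times the product at day 4, reported as 6, numbered 12 with at least 2 UMIs for a positive cell, 11 after thinning to 5000 UMIs and 2 at 2 times the product. At day 5, reported as 14, they numbered 6 with at least 2 UMIs and 5 after thinning. At day 6, reported as 7, they numbered 3 with at least 2 UMIs, 3 with 1 product over all cells and 0 after thinning. Fewer pairs reach a product of 3 cells with 2 UMIs or after thinning, by construction, and at day 6 none does after thinning. With 1 product over all cells at day 6, the pairs of *Mesp1* and *Mesp2* with *T* and *Sp5* also fell below a product of 3 cells. For the other changes the cause was not tested. Thinning took the ratio of *Tbx6* and *Mesp2* at day 4 from 1.64 to 0.919 and that of *Mesp2* and *Sp5* from 1.15 to 0.710, with 3 and 8 cells left, and it put the share of *Gsc* at day 11 above that at day 4 (6.37% and 5.42%, against 9.79% and 17.7%). The level in the highest cell group moved beyond its counting interval in 7 of 32 cases with the members kept in the clustering, 7 at resolution 0.5 and 10 at resolution 1.5. No paired analysis was possible because each day has 1 library. The shallower cells of day 11 limit what can be said of genes with few UMIs there.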
